A study of Mus musculus with 11 samples.

Results

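The fibroblast growth factor (FGF) system was followed across 4 compartments of the developing mouse kidney and ureter, as 36 genes taken by their symbols: the numbered Fgf ligands, the receptors Fgfr1 to Fgfr4 and Fgfrl1, the binding protein Fgfbp1, and the feedback genes Spry1 to Spry4, Spred1 to Spred3 and Dusp6. These 36 genes are among 18193 genes that the array measures under 1 symbol, and they are covered by 80 probe sets. FGF ligands bind receptor tyrosine kinases on the cell surface together with heparan sulfate or a Klotho co-receptor, and the active receptor signals through RAS and the kinase ERK. ERK signalling switches on its own inhibitors, the Sprouty, Spred and Dusp6 genes, which are widely read as its targets. In the embryonic kidney the pathway is known for keeping nephron progenitors alive, for branching of the ureteric bud and for growth of the stroma.

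There were 11 arrays. Cortical collecting duct had 2 of them, and early proximal tubule, ureteral smooth muscle and urothelium, the lining epithelium of the ureter, had 3 each. In the plots these compartments are abbreviated CCD, EPT, USM and URO. All came from wild-type CD-1 mice, an outbred stock, at E15.5 (Theiler stage 23), with no treatment, and the sex of the embryos is unknown per the labels. Each compartment was cut by laser capture microdissection from frozen, stained sections, and about 50 sections of 5 kidneys were pooled for each sample, whose RNA went through 2 rounds of amplification. Nothing states that the pools came from separate animals, so the p-values speak for the spread among pools only, and that spread may be technical.

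Values are log2 signals, the log2 of the deposited array intensity plus 55, so a signal of 0 would read 5.78 and the folds of dim genes are understated. The median of an array lay between 8.24 and 8.83 on this scale. Markers of the named compartment were called higher there for 6 of 8 collecting duct genes, 8 of 8 proximal tubule genes, 8 of 8 smooth muscle genes and 5 of 7 urothelial genes. Arrays correlated at 0.884 to 0.933 within a compartment and at 0.714 to 0.909 between compartments, and collecting duct replicate 2 stood slightly closer to urothelium replicate 3 (r = 0.909) than to its own partner (r = 0.905). The summed signal of 8 smooth muscle markers was 68773, 43847 and 13004 in urothelium replicates 1 to 3, against 280266 to 332003 in smooth muscle and 2966 to 6204 in the kidney epithelia. Of 6 interstitium and fibroblast markers, 5 were called higher in smooth muscle (83.3%, against 6.05% of all genes). Their summed signal was 212158 to 227238 in smooth muscle and 11015 to 51543 in the other arrays. How much of the muscle samples such cells made up was not tested. For Gapdh, the ratio of the 3' to the 5' control probe set, a measure of RNA integrity and amplification, was 16.7, 55.3 and 29.7 in urothelium and 6.79 to 25.9 in the other arrays. Actin did not set urothelium apart in this measure, with ratios of 6.66, 5.43 and 5.15 in urothelium and 5.07 to 13.5 elsewhere. A date-like part of the labels, whose meaning is not given, puts the arrays in 4 label batches, none of which holds both urothelium and a kidney epithelium.

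To enter the tests, a gene had to lie above the median of the array in 2 or more arrays. That left 24 of the 36 FGF genes among 13614 genes in all: 6 of 15 paracrine ligands, 1 of 3 hormone-like ligands, all 4 intracellular FGF homologous factors, all 5 receptors, Fgfbp1 and 7 of 8 feedback genes. The 12 that did not pass were Fgf2, Fgf5, Fgf6, Fgf8, Fgf16, Fgf17, Fgf18, Fgf20, Fgf21, Fgf22, Fgf23 and Spry3. Their log2 signals ran from 5.81 to 9.39, with 9 of them above the median in 0 arrays and Fgf5, Fgf6 and Fgf22 in 1 array. Among them Fgf8 and Fgf20, ligands known to act in and around the nephron progenitors, were at most 7.19 and 8.34. The nephron progenitor itself is not one of the dissected compartments. A low signal does not show that a gene was silent, since no detection calls come with these values.

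Each compartment was compared with the mean of the other 3, equally weighted, and 3 pairs of compartments were compared, all in 1 limma fit over the 11 arrays. A difference was called where its absolute log2 fold change was at least 1 and its p, adjusted after Benjamini and Hochberg over all 13614 genes, was under 0.05. Of the 24 genes, Fgf15 and Fgf3 passed the filter through arrays of 1 compartment alone and so had to be high there. Both are given as values with no test, and every count is over the other 22 genes. Of these, 9 were called in at least 1 of the 4 compartment comparisons, where 24.6% of all genes were, and 10 in at least 1 of the 7, where 25.2% were. The moderated F test of any difference between compartments passed for 7 of the 22 genes (31.8%), and for 20.1% of all genes tested. The 7 were Fgf1, Fgf7, Fgf9, Fgfbp1, Fgfr3, Fgfr4 and Spred3. In bulk material of this kind, fewer cells of a type and less RNA per cell cannot be told apart.

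In cortical collecting duct 1 FGF gene was called higher (Fgf9), where 1.42% of all genes were, and 2 lower (Fgfr3 and Spred3), where 0.624% were. Early proximal tubule had 3 higher (Fgf1, Fgfr3 and Fgfr4; 9.53% of all genes) and 2 lower (Fgf13 and Fgfbp1; 6.41%). Ureteral smooth muscle had 2 higher (Fgf7 and Fgf11; 6.05%) and 2 lower (Fgf9 and Fgfr4; 9.12%). Urothelium had 1 higher (Fgfbp1; 1.65%) and 2 lower (Fgf7 and Fgfr4; 0.713%). Out of 22, a count of 1 is 4.55%, of 2 is 9.09% and of 3 is 13.6%, so the smooth muscle and proximal tubule counts lay near the share of all genes. With counts this small the genes themselves carry more than their number.

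**Figure D1:**
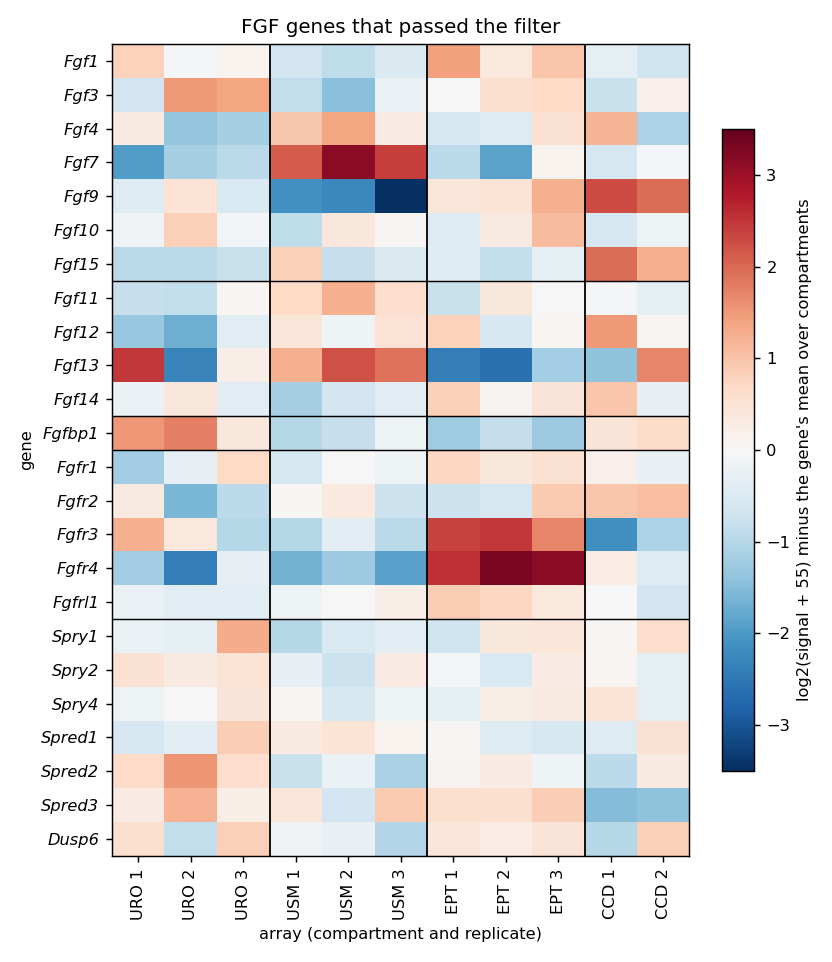
Each row is 1 of the 24 FGF genes that passed the filter and each column 1 array, coloured by its log2(signal + 55) minus the mean of that gene's 4 compartment means; black lines part compartments and gene roles, from ligands at the top to feedback genes at the bottom. Among the deepest colours are Fgf7 and Fgf9 in smooth muscle, Fgfr3 and Fgfr4 in proximal tubule, and Fgf13 in arrays of several compartments. The Sprouty genes are paler.

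Among the ligands, Fgf9 and Fgf7 had opposite profiles in epithelium and muscle. Fgf9, a ligand made by epithelia and known in the kidney for sustaining nephron progenitors, had log2 signals of 7.58, 7.46 and 6.07 in smooth muscle. It had 11.99 and 11.65 in collecting duct, 10.14, 10.19 and 10.94 in proximal tubule, and 9.27, 10.22 and 9.17 in urothelium. All 3 muscle arrays lay below every epithelial array, and both collecting duct arrays lay above all others. The log2 fold change of Fgf9 in smooth muscle was -3.56 ± 0.40 (SE, n = 3 against 8; limma adjusted p = 5.43e-05). It was called higher in collecting duct by 2.81 ± 0.46 (n = 2 against 9; adjusted p = 0.00796), and higher in urothelium than in smooth muscle by 2.52 ± 0.48 (n = 3 each; adjusted p = 0.00507). Within label batches the difference of urothelium from smooth muscle was 1.69 and 3.62. The collecting duct call was lost without collecting duct replicate 1 or replicate 2 (log2 fold change 2.65 to 2.98, adjusted p = 0.0883 to 0.161), and with label batch as a fixed block it was 2.41 with an adjusted p of 0.281. A second probe set for Fgf9 also had its highest mean in collecting duct, with 9.70 and 8.61 there and 9.22 in proximal tubule replicate 1.

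Fgf7, keratinocyte growth factor, a mesenchymal ligand that acts on epithelia, ran the other way. Its log2 signals were 11.54, 12.60 and 11.85 in smooth muscle. They were 8.84 and 9.37 in collecting duct, 8.51, 7.57 and 9.56 in proximal tubule, and 7.48, 8.26 and 8.48 in urothelium. The muscle arrays stood apart from all 8 epithelial arrays, while the epithelia overlapped one another. A second Fgf7 probe set, which also passed the filter, had its highest mean in smooth muscle but overlapped proximal tubule. It read 8.68, 8.62 and 8.48 in smooth muscle and 8.34, 7.74 and 8.61 in proximal tubule. These muscle arrays also had a high sum of interstitium and fibroblast markers, and the part of such cells in Fgf7 was not tested. Fgf7 was higher in smooth muscle by 3.42 ± 0.43 (n = 3 against 8; limma adjusted p = 0.000136). Urothelium was lower than the adjacent muscle by -3.92 ± 0.52 (n = 3 each; adjusted p = 0.000448), with -4.06 and -3.48 in the batches that hold both. The urothelial arrays carried smooth muscle markers at a summed signal above that of the kidney epithelia. Their Fgf7 values lay in the range of those epithelia or below it. The part of carried-over muscle in these values was not tested. Against the mean of all other compartments Fgf7 was lower in urothelium by -1.81 ± 0.43 (adjusted p = 0.0444). That call was lost without any 1 of 8 arrays, that is, any but proximal tubule replicates 2 and 3 and smooth muscle replicate 1 (adjusted p = 0.0542 to 0.197), and with the batch block (-1.11, adjusted p = 0.923). It was also lost with quantile normalization, with a pseudocount of 12, with no filter and with the mean of probe sets.

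Fgf1, acidic FGF, which binds all the signalling receptors, had log2 signals of 10.36, 9.29 and 9.87 in proximal tubule. It had 8.58 and 8.21 in collecting duct, 8.24, 8.02 and 8.41 in smooth muscle, and 9.71, 8.83 and 9.03 in urothelium. Proximal tubule was the highest compartment, with replicate 2 inside the urothelial range, and collecting duct and muscle lay close to the array medians. The log2 fold change in proximal tubule was 1.24 ± 0.33 (n = 3 against 8; limma adjusted p = 0.0235). This call was lost without collecting duct replicate 2 or proximal tubule replicate 1 or 3 (0.98 to 1.22, adjusted p = 0.0507 to 0.122), and with label batch as a block the fold was larger and not called (1.69, adjusted p = 0.123). Of the 2 other Fgf1 probe sets, 1 passed the filter and had its highest mean in proximal tubule (9.25), within the range of urothelium, and the other exceeded the median in 0 arrays.

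The other paracrine ligands that passed did so on few arrays, and Fgf10 and Fgf4 were called nowhere. Fgf10, the mesenchymal ligand of lung and limb budding, exceeded the median in 1 proximal tubule and 1 urothelium array and ranged from 6.999 to 9.005. Fgf3, an embryonic ligand of the ear and tail, exceeded it in 2 urothelium arrays alone and ranged from 5.95 to 8.91. Fgf4, a ligand of the early embryo, exceeded it in 1 collecting duct and 2 smooth muscle arrays and ranged from 6.44 to 9.19. Each of these ranges spans arrays of several compartments.

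Fgf15, in mouse the counterpart of the hormone FGF19 that curbs bile acid synthesis, passed the filter through the 2 collecting duct arrays alone. Its values are therefore a description, with no test. They were 9.05 and 8.34 in collecting duct, 6.66, 6.24 and 6.74 in proximal tubule, 7.92, 6.28 and 6.58 in smooth muscle, and 6.14, 6.16 and 6.30 in urothelium. The collecting duct pair lay above the other 9 arrays, and smooth muscle replicate 1 came nearest. Within the label batches that hold both, proximal tubule was lower than collecting duct by -1.85 and -2.39.

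**Figure D2:**
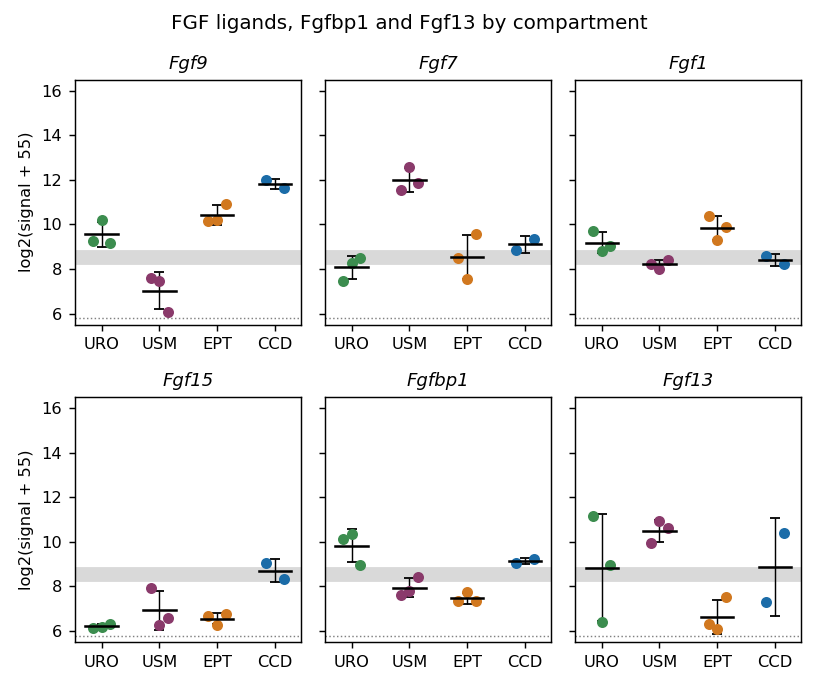
Points are arrays, black bars compartment means with SD (n = 2 for CCD, 3 for the others), the vertical axis is log2(signal + 55), the grey band is the range of array medians and the dotted line is a signal of 0. Fgf9 in smooth muscle (6.07 to 7.58) lies below and Fgf7 in smooth muscle (11.54 to 12.60) above all other arrays, and Fgf13 scatters within collecting duct and urothelium.

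The FGF homologous factors Fgf11 to Fgf14 stay inside the cell, do not bind FGF receptors and are known as partners of voltage-gated sodium channels in nerve and muscle. Fgf11 was at 9.34, 9.90 and 9.25 in smooth muscle. It was at 8.60 and 8.32 in collecting duct, 7.88, 9.04 and 8.65 in proximal tubule, and 7.84, 7.78 and 8.72 in urothelium. The muscle arrays lay above the rest, by a small margin over proximal tubule replicate 2. Fgf11 was higher in smooth muscle by 1.13 ± 0.35 (n = 3 against 8; limma adjusted p = 0.0465). That call did not survive the loss of any array other than proximal tubule replicate 2 or urothelium replicate 3 (0.93 to 1.26, adjusted p = 0.0545 to 0.189), nor the batch block (1.51, adjusted p = 0.0869).

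Fgf13 was the least even of the FGF genes within a compartment. Its log2 signals were 6.30, 6.09 and 7.50 in proximal tubule and 9.96, 10.93 and 10.60 in smooth muscle, but 11.17, 6.39 and 8.94 in urothelium and 7.31 and 10.41 in collecting duct. Proximal tubule was low and muscle high in all replicates, while the collecting duct and urothelial arrays ranged from the one to the other. Fgf13 was lower in proximal tubule by -2.76 ± 0.83 (n = 3 against 8; limma adjusted p = 0.0381), a call lost without collecting duct replicate 2, any proximal tubule array, or smooth muscle replicate 2 or 3 (-3.20 to -2.25, adjusted p = 0.0533 to 0.153) and with the batch block (-4.03, adjusted p = 0.119). Its difference in smooth muscle, 2.39 ± 0.83, did not pass (adjusted p = 0.0714). In urothelium, replicate 1, with the highest Fgf13, also had the highest sum of smooth muscle markers (68773), and replicate 3, with the lowest sum (13004), had the middle Fgf13 value. The part of carried-over muscle in these values was not tested.

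Fgf12 averaged 6.81 ± 0.69 in urothelium (SD, n = 3), against 8.73 ± 1.02 in collecting duct (n = 2), 8.06 ± 0.69 in proximal tubule and 8.21 ± 0.35 in smooth muscle. Its urothelial difference of -1.52 ± 0.43 (SE) was not called by limma (adjusted p = 0.086). For Fgf14 the probe sets disagreed. The brightest, the one tested, averaged 8.73 ± 0.37 in proximal tubule and 7.54 ± 0.39 in smooth muscle (SD, n = 3 each), while its 3 other probe sets, of which 2 passed the filter, were all highest in smooth muscle. Those 3 averaged 9.26 ± 0.91, 8.73 ± 0.69 and 8.20 ± 0.82 in smooth muscle, against 6.80 ± 0.62, 5.95 ± 0.03 and 6.20 ± 0.55 in proximal tubule (SD, n = 3 each). No compartment can be named for Fgf14 from these arrays, and the transcripts that each probe set reads were not examined here.

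Fgfbp1, a secreted carrier that releases FGFs from the matrix, was highest in urothelium. Its log2 signals were 10.12, 10.36 and 8.97 in urothelium, 9.05 and 9.23 in collecting duct, 7.33, 7.76 and 7.33 in proximal tubule, and 7.60, 7.79 and 8.41 in smooth muscle. Urothelium and collecting duct, both derived from the ureteric bud, lay above all proximal tubule and muscle arrays, and urothelium replicate 3 fell below the collecting duct pair. The log2 fold change was 1.63 ± 0.36 in urothelium (n = 3 against 8; limma adjusted p = 0.0311), -1.49 ± 0.36 in proximal tubule (n = 3 against 8; adjusted p = 0.012) and 1.88 ± 0.43 for urothelium against smooth muscle (n = 3 each; adjusted p = 0.015). Within label batches the last of these was 1.25 and 2.52.

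The Fgfbp1 calls rested on few arrays. The urothelial call was lost without either collecting duct array, proximal tubule replicate 1, smooth muscle replicate 2 or urothelium replicate 1 or 2 (1.36 to 1.66, adjusted p = 0.0541 to 0.178). The proximal tubule call was lost without proximal tubule replicate 1 or 3 (adjusted p = 0.051 to 0.0534), and that against smooth muscle without smooth muscle replicate 1 or 2 or urothelium replicate 1 or 2 (adjusted p = 0.0535 to 0.0635). With label batch as a fixed block, Fgfbp1 was at 1.53, -1.46 and 1.80 in these 3 comparisons, with adjusted p of 0.745, 0.284 and 0.0905.

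The receptors divided into a broad pair and a pair that marked the proximal tubule. Fgfr4, in adult animals the main receptor of hepatocytes, had log2 signals of 13.11, 13.86 and 13.73 in proximal tubule. It had 10.82 and 10.12 in collecting duct, 8.89, 9.28 and 8.66 in smooth muscle, and 9.34, 8.17 and 10.28 in urothelium. All proximal tubule arrays lay above all others, and collecting duct came next with an overlap with urothelium. Fgfr4 was higher in proximal tubule by 4.004 ± 0.42 (n = 3 against 8; limma adjusted p = 3.65e-05), and 3.67 with the batch block (adjusted p = 0.0264). Against collecting duct alone it was higher by 3.09 ± 0.56 (n = 3 against 2; adjusted p = 0.00481), with 3.67 and 2.28 within label batches, and that call was lost without collecting duct replicate 2 (2.74, adjusted p = 0.0725). Its 4 other probe sets all had their highest mean in proximal tubule, and 3 of them passed the filter.

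Fgfr4 was in turn lower in smooth muscle, by -2.16 ± 0.42 (n = 3 against 8; limma adjusted p = 0.00314; -1.96 and 0.0813 with the batch block). Averaging the Fgfr4 probe sets that passed the filter, in place of the brightest, reduced that to -0.94, which is below the fold required. In urothelium it was lower by -1.73 ± 0.42 (adjusted p = 0.0491). That urothelial call was lost when any array but urothelium replicate 3 was left out (-1.85 to -1.18, adjusted p = 0.0592 to 0.251), and with the batch block (-1.28, adjusted p = 0.904).

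Fgfr3, the receptor known best from cartilage, shared the proximal tubule maximum but not the rest of the profile. Its log2 signals were 14.43, 14.54 and 13.78 in proximal tubule. They were 9.93 and 10.95 in collecting duct, 11.07, 11.70 and 11.11 in smooth muscle, and 13.29, 12.44 and 11.05 in urothelium. Collecting duct lay lowest, proximal tubule highest, and urothelium spread between muscle and tubule. Fgfr3 was higher in proximal tubule by 2.92 ± 0.45 (n = 3 against 8; limma adjusted p = 0.000605; 2.39 and 0.107 with the batch block). Against collecting duct alone the log2 fold change was 3.81 ± 0.60 (n = 3 against 2; adjusted p = 0.00192), and it was 3.21 and 4.50 within label batches. Fgfr3 was lower in collecting duct than in the mean of the rest by -2.16 ± 0.51 (n = 2 against 9; adjusted p = 0.0483), a call that stood only without urothelium replicate 1 or 3 among the 11 arrays left out (lost: -2.67 to -1.65, adjusted p = 0.0574 to 0.417) and that the batch block removed (-2.63, adjusted p = 0.249). This call was also lost with a pseudocount of 12, with no filter and without probe sets ending in x, s or a.

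Fgfr1 and Fgfr2, the receptors of mesenchyme and epithelium that carry most FGF signalling in the embryonic kidney, were above the median in all 11 arrays and were called in no comparison. Fgfr1 averaged 10.43 ± 0.31 in collecting duct (SD, n = 2), 11.02 ± 0.15 in proximal tubule, 10.21 ± 0.33 in smooth muscle and 10.20 ± 0.96 in urothelium (n = 3 each). Fgfr2 was at 15.32 and 15.41 in collecting duct, 13.60, 13.78 and 15.28 in proximal tubule, 14.40, 14.71 and 13.62 in smooth muscle, and 14.68, 12.76 and 13.46 in urothelium. The collecting duct pair was highest, just above proximal tubule replicate 3, and its difference from the rest of 1.34 ± 0.54 (SE) had a 95% interval of 0.18 to 2.49 and did not pass limma's test (adjusted p = 0.283). The means of both other Fgfr2 probe sets were also highest in collecting duct, but through replicate 1 alone: they read 12.39 and 10.22 there, against 10.03 and 6.89 in replicate 2, which lay inside the range of the other compartments. They do not tell its epithelial and mesenchymal splice forms apart here.

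Fgfrl1, a receptor without the kinase domain that is needed for nephron formation in mice, was above the median throughout. It averaged 13.52 ± 0.27 in proximal tubule (SD, n = 3), against 12.51 ± 0.48 in collecting duct (n = 2), 12.86 ± 0.20 in smooth muscle and 12.51 ± 0.09 in urothelium. The 3 proximal tubule arrays lay above the other 8, but the difference of 0.89 ± 0.30 (SE) stayed below both thresholds of limma's call (adjusted p = 0.0585). A second Fgfrl1 probe set, above the median in all 11 arrays, did not set proximal tubule apart. It averaged 11.52 there, 11.50 in smooth muscle, 11.27 in collecting duct and 10.57 in urothelium.

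**Figure D3:**
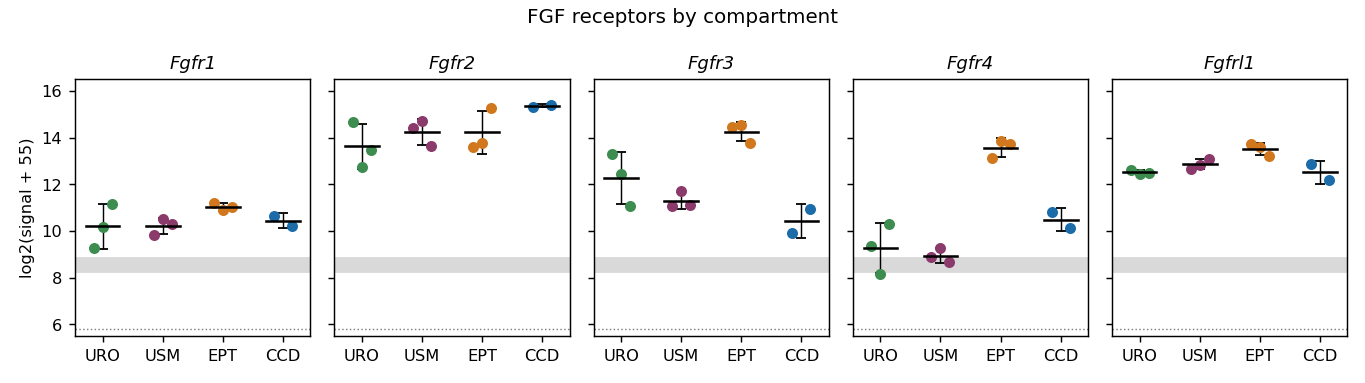
Points are arrays, black bars compartment means with SD, the vertical axis is log2(signal + 55), and the grey band is the range of array medians. Fgfr4 and Fgfr3 peak in proximal tubule (13.11 to 13.86 and 13.78 to 14.54), whereas Fgfr1 and Fgfr2 were called in no comparison; heights are not compared between genes.

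The start regions of the 2 tubule receptors and of the 2 ligands with opposite profiles are shown because these 4 genes carry the clearest compartment differences. They are the 120 bases before the annotated start from RefSeq (build GRCm38.p6, plus strand): chr5:33721604-33721723 for Fgfr3, chr13:55152698-55152817 for Fgfr4, chr2:126034538-126034657 for Fgf7 and chr14:58072566-58072685 for Fgf9. Capitals mark the GC box GGGCGG on either strand and the nuclear receptor half-site AGGTCA on either strand.
Fgfr3: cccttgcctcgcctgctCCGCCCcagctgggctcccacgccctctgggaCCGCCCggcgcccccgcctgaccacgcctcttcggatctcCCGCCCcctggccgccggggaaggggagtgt
Fgfr4: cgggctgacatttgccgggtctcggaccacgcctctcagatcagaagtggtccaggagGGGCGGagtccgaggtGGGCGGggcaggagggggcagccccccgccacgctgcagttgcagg
Fgf7: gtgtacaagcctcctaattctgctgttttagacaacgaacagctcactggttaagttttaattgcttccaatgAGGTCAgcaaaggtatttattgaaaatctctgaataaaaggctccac
Fgf9: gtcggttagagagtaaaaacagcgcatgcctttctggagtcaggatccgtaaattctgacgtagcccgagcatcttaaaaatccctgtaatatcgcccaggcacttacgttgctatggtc
Fgfr3 has 3 GC boxes in this stretch and Fgfr4 has 2, with 77.5% and 70.8% G or C, while Fgf7 has 38.3% and 1 half-site, and Fgf9 has 47.5% and neither motif. RefSeq gives 2 starts for Fgfr3, of which the first is shown. For Fgf9 the start used lies inside the annotated gene, which begins at chr14:58070671. The Fgf9 stretch is therefore not upstream of the whole gene, unlike the others. Promoters were matched for 27 of the 36 genes. These 27 genes have 34 promoters in the table. In the 250 bases before the start, the GC box was present in 22 of the 34 (64.7%), from 18 genes, and in 32.7% of all 32851 promoters in the table. AGGTCA was present in 3 of the 34 (Fgf6, Fgf7 and Fgf12; 8.82%, against 14% of all promoters), the ETS site CCGGAA in 4 (Fgf5, Fgf12, Fgfr4 and Fgfrl1; 11.8%, against 12%), the HNF1 half-site GTTAAT in that of Dusp6 alone (2.94%, against 6.43%) and TATAAA in that of Fgf21 alone (2.94%, against 12.4%), all searched on both strands. A match describes these letters and does not show that a factor binds.

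Of the 7 feedback genes tested, 5 were called in no compartment comparison and no pair. Dusp6, the phosphatase that removes the activating phosphates from ERK, was above the median in all 11 arrays. Its log2 signals were 12.05 and 13.88 in collecting duct, 13.45, 13.29 and 13.48 in proximal tubule, 12.93, 12.77 and 12.01 in smooth muscle, and 13.59, 12.18 and 13.88 in urothelium. The collecting duct pair alone spanned nearly the whole range. Spry1, which restrains the GDNF receptor Ret at the ureteric bud, ranged from 9.86 to 12.18, Spry4 from 8.05 to 9.11 and Spred1 from 11.68 to 13.11, and in none of them did a compartment lie apart from all others. Spry2, another inhibitor of receptor tyrosine kinase signalling, was at 10.05 to 10.27 in urothelium, against 8.99 to 10.03 over the other 8 arrays, so the urothelial arrays lay above all others by a narrow margin. A second Spry2 probe set, which also passed the filter, had its highest mean in smooth muscle (8.52), against 8.27 in urothelium.

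For these 5 genes 0 of 20 compartment differences were called by limma, and 0 had an unadjusted p under 0.05. Their log2 fold changes lay between -0.85 and 0.59, and the 95% intervals reached from -1.74 to 1.48, so these arrays do not bound every one of these differences below 1. The F test gave adjusted p of 0.44 to 0.894. Spred1 has 8 probe sets, and 1 of the other 7 shared its top compartment, smooth muscle.

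Spred2 and Spred3, membrane-bound inhibitors of RAS signalling, were each called in at least 1 comparison. Spred2 was at 12.55, 13.45 and 12.49 in urothelium, against 11.10, 11.66 and 10.75 in smooth muscle, 10.97 and 12.20 in collecting duct and 11.99, 12.18 and 11.73 in proximal tubule. All urothelial arrays lay above all others, by a small margin over collecting duct replicate 2. The difference of urothelium from the mean of the other 3 compartments was 1.26 and was not called by limma (adjusted p = 0.101). The moderated F test of Spred2 did not pass either (adjusted p = 0.0668). Spred2 was higher in urothelium than in smooth muscle by 1.66 ± 0.44 (n = 3 each; limma adjusted p = 0.0339; 2.22 and 1.46 within label batches). That call was lost without smooth muscle replicate 1 or 3 or urothelium replicate 1 or 2 (1.35 to 1.80, adjusted p = 0.0568 to 0.133). It was also lost with the batch block (1.89, adjusted p = 0.0624) and with the mean of the Spred2 probe sets that passed the filter (0.46, adjusted p = 0.58). Of the other 4 probe sets 1 had its highest mean in urothelium, and the 2 that passed the filter did not.

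Spred3 was at 6.46 and 6.58 in collecting duct, against 8.54, 8.54 and 8.85 in proximal tubule, 8.41, 7.30 and 8.90 in smooth muscle and 8.27, 9.18 and 8.19 in urothelium. Both collecting duct arrays lay below the other 9, and the other compartments overlapped. The log2 fold change of collecting duct was -1.94 ± 0.43 (n = 2 against 9; limma adjusted p = 0.0347), and that of proximal tubule against collecting duct was 2.13 ± 0.51 (n = 3 against 2; adjusted p = 0.0244; 2.11 and 2.08 within label batches). The first was lost without either collecting duct array, any proximal tubule array or smooth muscle replicate 1 (-2.01 to -1.88, adjusted p = 0.0521 to 0.277) and with the batch block (-1.21, adjusted p = 0.596). The second was lost without any collecting duct or proximal tubule array (2.02 to 2.19, adjusted p = 0.0529 to 0.132).

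**Figure D4:**
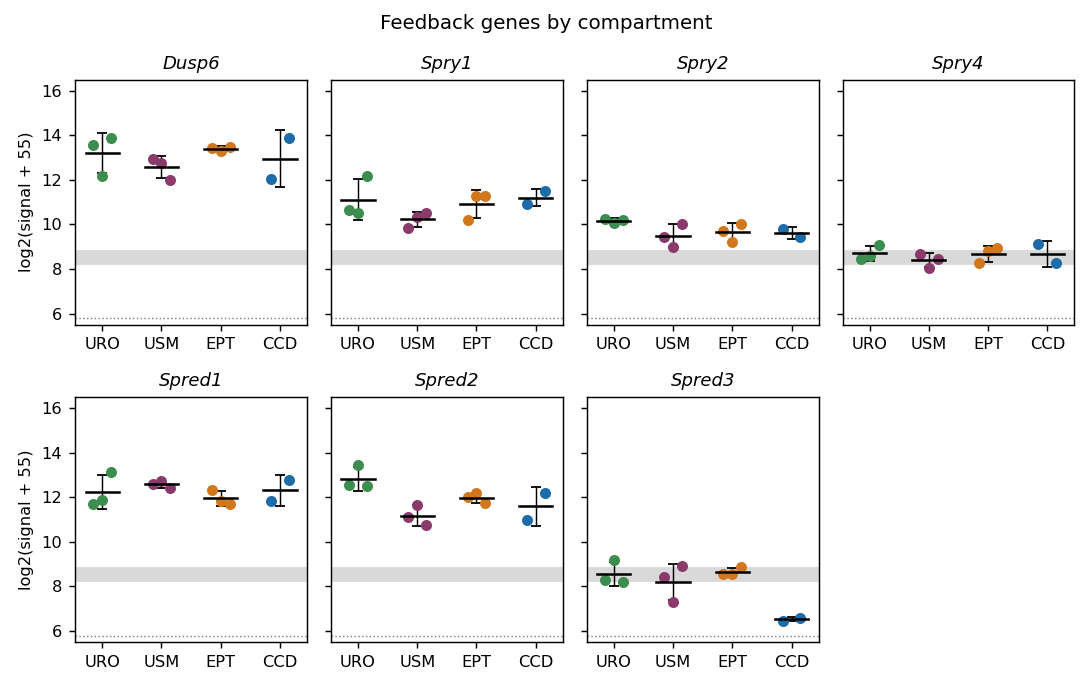
Points are arrays, black bars compartment means with SD, the vertical axis is log2(signal + 55), the grey band is the range of array medians and the dotted line is a signal of 0. Dusp6, Spry1, Spry4 and Spred1 overlap across compartments, Spry2 in urothelium (10.05 to 10.27) lies just above the rest, Spred2 is highest in urothelium (12.49 to 13.45), and Spred3 is lowest in collecting duct (6.46 and 6.58).

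In the comparisons between pairs of compartments, urothelium against the surrounding smooth muscle called 3 FGF genes higher (Fgf9, Fgfbp1 and Spred2; 5.03% of all genes) and 1 lower (Fgf7; 2.93%). Early proximal tubule against collecting duct called 3 higher (Fgfr3, Fgfr4 and Spred3; 3.65%) and 0 lower (2.19%), with 2 lower at an unadjusted p under 0.05. Urothelium against collecting duct, the 2 epithelia of ureteric bud origin, called 0 higher (0.162%) and 0 lower (0.0955%) by limma, with 3 FGF genes higher (6.96% of all genes) and 3 lower (5.07%) at an unadjusted p under 0.05. The differences nearest to a call there were Fgf9 at -2.27 ± 0.54 (adjusted p = 0.105) and Spred3 at 2.03 ± 0.51 (adjusted p = 0.121). These 2 epithelia share no label batch, so there is no within-batch value for them.

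Genes that work beside the FGF receptors at the cell surface were called at shares that lay, in part, near those of all genes. Of 22 listed co-receptors and heparan sulfate modifiers, 19 were tested. In proximal tubule 2 were higher (10.5%, against 9.53% of all genes) and 3 lower (15.8%, against 6.41%), and in smooth muscle 2 higher (10.5%, against 6.05%) and 1 lower (5.26%, against 9.12%). In urothelium 2 were higher (10.5%, against 1.65%) and 1 lower (5.26%, against 0.713%), and in collecting duct 0 were called. The median log2 fold change of the list was -0.31 in proximal tubule, 0.30 in smooth muscle, 0.08 in urothelium and 0.11 in collecting duct, against 0.05, -0.07, 0.01 and -0.03 over all genes.

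Kl, alpha-Klotho, the co-receptor for Fgf23 in the tubule, had log2 signals of 13.18, 12.93 and 12.18 in proximal tubule, against 6.89 to 9.36 over the other 8 arrays. The tubule arrays stood clear of all others. Kl was higher there by 4.58 ± 0.40 (n = 3 against 8; limma adjusted p = 1.08e-05), and lower in urothelium by -2.77 ± 0.40 (adjusted p = 0.0028; -4.02 and 0.129 with the batch block). It thus shared its top compartment with Fgfr3 and Fgfr4, while its ligand Fgf23 did not exceed the median in any array. Gpc4, a heparan sulfate proteoglycan of the cell surface, was also higher in proximal tubule, by 2.90 ± 0.46 (adjusted p = 0.000842, and 0.0951 with the batch block), with 15.31 to 15.69 against 10.70 to 13.31 elsewhere.

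Flrt3, a membrane protein that binds FGF receptors, had 12.71, 12.31 and 12.66 in smooth muscle, 11.67, 11.94 and 11.58 in urothelium, 9.99 ± 0.01 (SD, n = 2) in collecting duct and 7.84, 7.91 and 8.77 in proximal tubule. The 4 compartments did not overlap. It was higher in smooth muscle by 2.60 ± 0.31 (n = 3 against 8; limma adjusted p = 8.83e-05) and in urothelium by 1.49 ± 0.31 (adjusted p = 0.025), and lower in proximal tubule by -3.25 ± 0.31 (adjusted p = 1.9e-05). The urothelial call was lost without collecting duct replicate 2 or urothelium replicate 1 or 2 (adjusted p = 0.051 to 0.135) and with the batch block (adjusted p = 0.742). Sulf1, an enzyme that trims sulfate from heparan sulfate, had 15.52, 15.03 and 15.08 in smooth muscle and 8.32 to 13.20 elsewhere. It was higher in smooth muscle by 3.90 ± 0.59 (adjusted p = 0.000545) and lower in proximal tubule by -3.18 ± 0.59 (adjusted p = 0.0025). Hs6st1, which adds the sulfate that Sulf1 removes, was lower in smooth muscle by -1.52 ± 0.41 (adjusted p = 0.022), a call lost without collecting duct replicate 1 or smooth muscle replicate 1 or 2 (adjusted p = 0.0556 to 0.152) and with the batch block (adjusted p = 0.0551). Sdc1, an epithelial syndecan, was higher in urothelium by 1.99 ± 0.45 (adjusted p = 0.0357), a call lost without any array but collecting duct replicate 1, proximal tubule replicate 3 and urothelium replicate 3 (adjusted p = 0.0507 to 0.201) and with the batch block (2.27, adjusted p = 0.66).

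**Figure D5:**
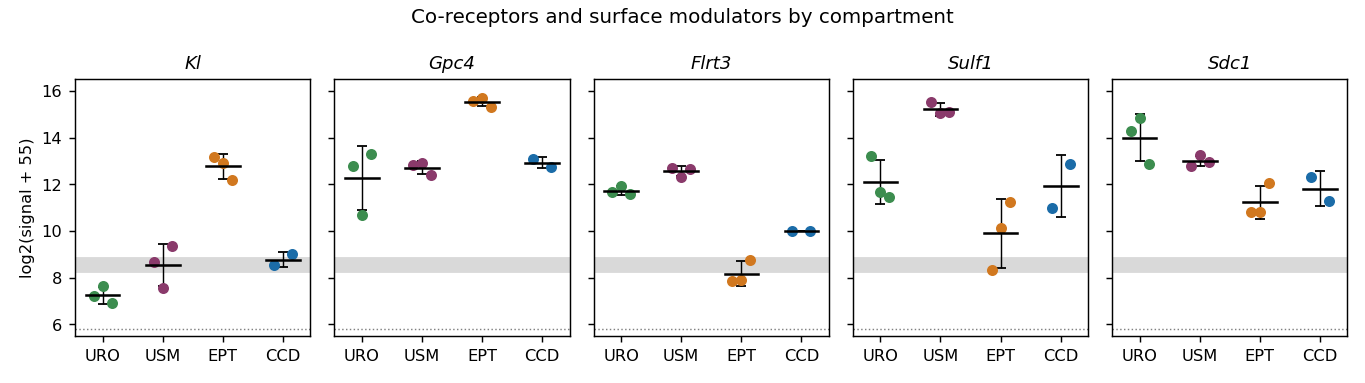
Points are arrays, black bars compartment means with SD, the vertical axis is log2(signal + 55), the grey band is the range of array medians and the dotted line is a signal of 0. Kl (12.18 to 13.18) and Gpc4 (15.31 to 15.69) peak in proximal tubule, and Flrt3 and Sulf1 peak in smooth muscle and are lowest in proximal tubule.

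Of 26 listed adaptors, RAS proteins and kinases that relay the signal from receptor to ERK, 20 were tested. In collecting duct 0 were called, 2 were higher in proximal tubule (10%, against 9.53% of all genes), 1 was lower in smooth muscle (5%, against 9.12%) and 1 lower in urothelium (5%, against 0.713%). Araf, a RAF kinase, was higher in proximal tubule by 1.99 ± 0.35 (limma adjusted p = 0.00169) and lower in smooth muscle by -1.27 ± 0.35 (adjusted p = 0.0257). Frs3, a docking protein of FGF receptors, was higher in proximal tubule by 1.88 ± 0.37 (adjusted p = 0.00354) and lower in urothelium by -1.52 ± 0.37 (adjusted p = 0.0492). All 4 of these calls were lost with label batch as a block (adjusted p = 0.0846, 0.154, 0.0628 and 0.481, in the order given). The Araf call in muscle was also lost without collecting duct replicate 2 or smooth muscle replicate 2 or 3 (adjusted p = 0.059 to 0.123). The Frs3 call in urothelium was lost without any array but collecting duct replicate 2 and urothelium replicate 3 (adjusted p = 0.0582 to 0.213). The list's median stayed between -0.13 and 0.09 over the 4 compartments.

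Of 15 listed genes outside the FGF set that respond to ERK, 11 were tested. In collecting duct 0 were called, and 2 were lower in proximal tubule (18.2%, against 6.41% of all genes). In smooth muscle 2 were higher (18.2%, against 6.05%) and 1 lower (9.09%, against 9.12%), and in urothelium 1 was higher (9.09%, against 1.65%). The list's median was -0.86 in proximal tubule and 0.43 in urothelium, against 0.05 and 0.01 over all genes. Phlda1 was lower in proximal tubule by -2.47 ± 0.41 (limma adjusted p = 0.00106) and higher in smooth muscle by 1.68 ± 0.41 (adjusted p = 0.0127). Ccnd1, cyclin D1, was lower in proximal tubule by -1.50 ± 0.35 (adjusted p = 0.0101) and higher in smooth muscle by 1.67 ± 0.35 (adjusted p = 0.00509). Dusp4, a nuclear phosphatase of ERK, was lower in smooth muscle by -1.91 ± 0.59 (adjusted p = 0.0424). The Phlda1 call in muscle was lost without smooth muscle replicate 1 or 3 (adjusted p = 0.0526 to 0.0696), the Ccnd1 call in tubule without proximal tubule replicate 2 (adjusted p = 0.0842), and the Dusp4 call without collecting duct replicate 2, proximal tubule replicate 1 or 3, smooth muscle replicate 1 or 3 or urothelium replicate 1 (adjusted p = 0.0579 to 0.218). With the batch block the adjusted p was 0.053 for Phlda1 in muscle, 0.268 and 0.0833 for Ccnd1 in tubule and in muscle, and 0.523 for Dusp4.

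Fos, an immediate early gene, was at 11.41, 12.64 and 9.80 in urothelium, against 6.29 to 8.17 over the other 8 arrays. The urothelial arrays lay above all others. Its log2 fold change was 4.32 ± 0.53 (n = 3 against 8; limma adjusted p = 0.00109; 3.49 and 0.457 with the batch block). The Gapdh ratio of urothelium replicates 2 and 3 (55.3 and 29.7) was above that of every other compartment's arrays, but that of replicate 1 (16.7) was not. Actin ratios were not high in urothelium, which shares no batch with the kidney epithelia. The part of handling, batch and RNA integrity in the Fos difference was not tested. Of the 11 listed genes tested, 2 were higher in urothelium than in smooth muscle (18.2%, against 5.03% of all genes) and 0 lower. They were Fos, by 3.84 ± 0.64 (n = 3 each; limma adjusted p = 0.00216), and Dusp4, by 2.87 ± 0.70 (adjusted p = 0.0223). These 2 compartments share label batches. Against the mean of the other 3, Dusp4 and Etv5 were not called in urothelium (adjusted p = 0.113 and 0.0961). Dusp6 and the Sprouty genes, which also respond to ERK, were not called there either.

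Other receptor tyrosine kinases, with their co-receptors and ligands, gave a point of comparison in the same cells. Of 16 listed, 15 were tested. In smooth muscle 2 were higher (13.3%, against 6.05% of all genes) and 6 lower (40%, against 9.12%), and these 8 include the ligands Hgf, Egf and Tgfa. In proximal tubule 2 were higher (13.3%, against 9.53%) and 2 lower (13.3%, against 6.41%), in collecting duct 1 was higher (6.67%, against 1.42%) and in urothelium 0 were called. Gfra1, the GDNF co-receptor of the ureteric bud, was higher in collecting duct by 3.57 ± 0.51 (limma adjusted p = 0.00449) and lower in smooth muscle by -2.69 ± 0.44 (adjusted p = 0.000906) and in proximal tubule by -1.78 ± 0.44 (adjusted p = 0.0144). Pdgfra, a receptor of mesenchyme, was higher in smooth muscle by 3.17 ± 0.56 (adjusted p = 0.00167) and lower in proximal tubule by -2.51 ± 0.56 (adjusted p = 0.00821). Met, the hepatocyte growth factor receptor, was lower in smooth muscle by -4.45 ± 0.47 (adjusted p = 3.5e-05) and higher in proximal tubule by 1.73 ± 0.47 (adjusted p = 0.0245). Erbb3, of the epidermal growth factor receptor family, was lower in smooth muscle by -5.03 ± 0.50 (adjusted p = 2.14e-05) and higher in proximal tubule by 1.68 ± 0.50 (adjusted p = 0.036). Without collecting duct replicate 1 the Gfra1 call in collecting duct was lost (adjusted p = 0.138). In proximal tubule, leaving out an array ended the call of Gfra1 (replicate 1 or 3; adjusted p = 0.0576 to 0.061), Pdgfra (replicate 3; 0.0524), Met (replicate 1 or 2, or collecting duct replicate 1; 0.0521 to 0.143) and Erbb3 (replicate 2 or 3, collecting duct replicate 2 or urothelium replicate 3; 0.0525 to 0.158). With the batch block, Gfra1 in collecting duct (adjusted p = 0.0872) and all 4 genes in proximal tubule (0.382, 0.093, 0.729 and 0.497, in the same order) were not called. For Fgfr1 and Fgfr2 no muscle difference was called, and the difference between these receptors and Met or Erbb3 was not tested.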

How the data were processed

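The authors deposited linear intensity signals for 45101 probe sets on each of 11 one-colour Affymetrix arrays. They were made with GCOS, whose version is not given in the sources used here, per the submitters' processing notes. Every array had a mean of 1500 after trimming 2% at each end, so the authors' scaling was kept. Compartments follow the labels, and replicate numbers only name arrays. Gene names came from the platform annotation: 34945 probe sets had 1 symbol, 932 had several and 9160 are unnamed here, beside 64 controls. Signals were taken to log2 after adding 55, the rounded 20th percentile of the table. A gene was read from the probe set with the highest mean. Tests used limma 3.58.1 in R 4.3.3 with 1 mean per compartment and 7 residual and 6.38 prior degrees of freedom. The number of arrays limits the precision.

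The genes, lists and tests were chosen with earlier results of these data known. Values in every array are given for FGF genes called in a compartment comparison, means or ranges for the others, and of each list at most the 4 called genes with the largest moderated t per comparison. Per-array values of Fgfr2, Dusp6 and Spred2 were added after they were seen. Counts leave out Fgf3 and Fgf15, which passed the filter through 1 compartment alone, a choice made after seeing the data. Alternatives changed the normalization (quantile), the pseudocount (12 or 190) and the filter (none, or at the 75th percentile). They also changed the reading of a gene, by averaging its probe sets that passed the filter or by dropping probe sets ending in x, s or a. The others changed limma's eBayes (trend and robust), the treatment of label batch (fixed or random block) and the arrays (each left out). The procedure was tested on simulated data. Promoters came from RefSeq (GRCm38.p6). Python 3.11.15, pandas 2.3.3 and matplotlib 3.10.9 were used for tables and plots.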

Additional observations from a re-analysis of the deposited data

How the results depend on the processing

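Of the 22 FGF results called, 0 reversed under the 21 alternatives, and 6 were called under all of them: Fgf7 and Fgf9 in smooth muscle and between urothelium and smooth muscle, Fgfr4 in proximal tubule, and Fgfr3 between proximal tubule and collecting duct. Label batch as a fixed block kept 8 of the 22 calls, and 19 of 29 calls of listed pathway genes were lost with it and 0 reversed. Losses of pathway gene calls under settings other than the fixed block and left-out arrays are not listed here. The number of FGF genes called in collecting duct was 3, and 0 with the fixed block and 0 to 3 with an array left out. In proximal tubule it was 5, and 3 with a filter at the 75th percentile, 1 with the block and 2 to 6 with an array left out. In smooth muscle it was 4, and 2 with the block and 3 to 5 with an array left out. In urothelium it was 3, and 1 with a pseudocount of 12, with no filter or with the mean of probe sets, 0 with the block and 0 to 2 with an array left out. Urothelium against smooth muscle gave 4, and 2 with the block and 2 to 5 with an array left out. Urothelium against collecting duct gave 0, and 1 with a pseudocount of 190 and 0 with any array left out. Proximal tubule against collecting duct gave 3, and 1 to 4 with an array left out. The stricter filter tests fewer genes, and the block spends degrees of freedom. With the block, 0.022% of all genes were called in collecting duct, 2.98% in proximal tubule, 6.99% in smooth muscle and 0% in urothelium. Without it the shares were 2.04%, 15.9%, 15.2% and 2.37%. Almost no gene was called with the block in collecting duct or urothelium, so losses there are not particular to FGF genes. The share in urothelium was 1.48% with a pseudocount of 12, 1.34% with no filter and 2.63% with probe set means. The cause of the other changes was not tested. No paired analysis was possible because replicate numbers here follow accession order, and the numbers inside the titles repeat within a compartment. With 2 collecting duct arrays, a result there rests on a single array once the other is left out, and that array is assumed to vary like the other compartments. Signals near the floor limit what can be said of the dim ligands.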
